A study of Mus musculus with 6 samples.

Results

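The genes described are the chromatin remodellers and histone modifiers that were measured on a mouse cDNA array in neuroblastoma cells transfected with polyglutamine expanded TBP. They were chosen by symbol: every gene whose name in the array annotation begins with Smarc, Hdac, Kdm, Kmt, Sin3, Arid or Ino80, or with Chd, Kat, Brd or Phf followed by a digit, together with Crebbp and Ep300. This gave 72 of the 6788 genes that the array names by 1 symbol, carried by 118 cDNA clones. The rule uses no measured value, but it was set with earlier results of these data known. Of the members, 69 had values on at least 4 of the 6 arrays and were tested. Kdm4a, Kmt2c and Phf6 had values on fewer arrays and are given as values only. Ep300 and Smarca2 are on no probe named by 1 symbol and were not analysed here.

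Neuro-2a is a cell line from a mouse neuroblastoma, a tumour of the sympathetic lineage. One dish received a plasmid coding for human TBP with a CAG repeat length of 59, fused to GFP (59Q), and the control dish received the pEGFPN3 vector (N3), so both RNAs of an array came from cells given a GFP plasmid and the transfection reagent. Transfection was transient and RNA was taken 60 h later, so each RNA came from transfected and untransfected cells together. On replicates 1, 3, 4 and 6 the 59Q sample carried Cy5, and on replicates 2 and 5 it carried Cy3. A construct with a repeat of normal length was not part of the arrays, so an effect of the repeat length and an effect of extra TBP cannot be told apart. Fewer cells expressing a gene and less of its RNA per cell cannot be told apart either. The labelled cell type could not be checked, because each value is a difference between a pair of RNAs from the same line and does not show whether a marker is present: the 5 neuroblast markers tested had a median Z-ratio of 0.123 and the 11 markers of other cell types one of -0.0940.

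TBP, the TATA-binding protein, is part of the machinery that starts transcription at the promoters of all the nuclear RNA polymerases. Chromatin remodellers use ATP to slide or evict nucleosomes and so open or close promoters to this machinery, while histone modifiers add or remove acetyl and methyl groups that other proteins read. Several of the acetyltransferases and their partners bind TBP or its associated factors, and CREBBP, which has a glutamine-rich stretch of its own, has been found in the inclusions formed by other polyglutamine proteins.

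Because TBP binds the TATA box, the start regions of the members were searched for TATAAA on both strands. They were also searched on both strands for GGGCGG, the GC box, which can lie beside TATAAA, as in the promoters of Sin3b and Smarcd2. RefSeq promoters of GRCm38.p6, from 250 bases before to 50 bases after each start, were at hand for 53 of the 72 members, with 75 starts among them. TATAAA was found in 3 of these 75 promoters (4%), against 7.45% of the 7038 promoters of all genes on the array and 13.6% of all 32851 promoters in the RefSeq table. GGGCGG was found in 58 of 75 (77.3%), against 62.8% and 35.7%. The TATAAA matches lay 57 bases before a start of Phf21a, 235 bases before one of Sin3b and 231 bases before one of Smarcd2. Only the first of these lies within 120 bases of its start, and letters that match are a description of the window, not a site of binding. The 120 bases before a start are printed 5′ to 3′ for the members on which the values below turn, and for the Phf21a start with TATAAA, with matches to either motif on either strand in capitals (CCGCCC is GGGCGG on the other strand). Matches may overlap, as in Arid1a. Brd2, Arid1a and Phf21a have further starts. For Brd2 and Arid1a the window with the most matches is shown, and of the windows of Phf21a, which hold 1 match each, the one with TATAAA and not the one with GGGCGG.
Brd2, chr17:34121748-34121867, minus strand: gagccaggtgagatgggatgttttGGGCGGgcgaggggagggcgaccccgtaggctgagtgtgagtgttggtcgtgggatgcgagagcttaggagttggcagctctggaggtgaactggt
Smarcb1, chr10:75921615-75921734, minus strand: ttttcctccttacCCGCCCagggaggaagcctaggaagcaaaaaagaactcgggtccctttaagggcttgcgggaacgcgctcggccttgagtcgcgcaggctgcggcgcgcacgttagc
Smarcc1, chr9:110131904-110132023, plus strand: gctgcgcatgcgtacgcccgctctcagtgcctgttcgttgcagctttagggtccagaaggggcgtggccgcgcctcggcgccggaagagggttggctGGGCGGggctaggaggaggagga
Arid1a, chr4:133753986-133754105, minus strand: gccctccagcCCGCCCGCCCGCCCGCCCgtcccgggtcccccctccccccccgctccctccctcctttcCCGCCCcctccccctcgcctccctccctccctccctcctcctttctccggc
Kdm1a, chr4:136602724-136602843, minus strand: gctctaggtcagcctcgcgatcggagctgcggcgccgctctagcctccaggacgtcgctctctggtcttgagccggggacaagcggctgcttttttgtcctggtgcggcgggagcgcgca
Phf21a, chr2:92221352-92221471, plus strand: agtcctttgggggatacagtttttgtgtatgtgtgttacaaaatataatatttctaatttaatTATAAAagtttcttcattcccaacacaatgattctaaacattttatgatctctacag

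The 48 tested members whose promoters held no TATAAA had a median Z-ratio of -0.0633, and the 3 with it had one of -0.0455. Over all genes tested with a promoter in the table, the medians were -0.0456 without TATAAA (4762 genes) and -0.0482 with it (462 genes). For GGGCGG the medians of the members were -0.0655 with it (42 genes) and -0.0118 without it (9 genes). Over all genes tested they were -0.0470 with it (3651 genes) and -0.0440 without it (1573 genes).

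Each deposited value is a Z-ratio, the difference between the Z scores of the channels of a spot divided by the SD of that difference over the array. It is a score with an SD of 1 on each array and gives no fold change. On every array a value above 0 was taken to mean more RNA in the 59Q cells, because the methods name them as treated and a legend of the study plots higher Z-ratios as more RNA in them, but no source used here states the direction for the deposited arrays. The genes of that legend given here, which leave out Ubb, changed sign with the dye layout. Actb averaged 1.45 with 59Q in Cy5 and -1.43 with 59Q in Cy3, Eef2 1.51 and -1.47, Eef1a1 1.51 and -1.38, and Vdac1 0.559 and -0.278, whereas Dctn5 had the reverse order, -0.381 and 0.608. Read as Cy5 over Cy3, the sign of replicates 2 and 5 would be turned. Medians and counts of the members, their classes and the other lists are given below in both readings, and single genes as deposited unless stated. Read as the first over the second channel listed in the labels, the sign of every array except replicate 1 would be turned. Across the 52 members measured on all 6 arrays, Pearson's r had a median of 0.227 for the 7 pairs of arrays with the same dye layout, with a range of -0.0558 to 0.263. For the 8 pairs with opposite layouts its median was -0.269, with a range of -0.532 to -0.0490. Over all 4926 such genes the medians were 0.171 and -0.270. These are correlations across genes, which share the array, the dyes and the labelling and are not independent replicates. The series describes 4 biological replicates and 2 pairs of flip-dye replicates without saying which arrays pair, whereas the methods describe 6 replicates, so the p-values below measure the spread between arrays, which may in part be technical. The transfected factor itself had a Z-ratio of 1.35 ± 1.19 (SD, n = 6 arrays) for Tbp. On replicates 1 to 6 Tbp had 2.92, 2.31, -0.0977, 0.176, 1.74 and 1.04, so both arrays with 59Q in Cy3 lay above 0. Read as Cy5 over Cy3 its mean was -0.00150. The limma test of the deposited values gave it a p of 0.00520 before and 0.999 after adjustment, and whether its clones, of mouse cDNA, detect the human transgene was not tested.

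As deposited, no member differed between 59Q and N3 cells beyond the spread between arrays. With limma over all 6463 genes tested, 0 of 69 members passed an adjusted p under 0.05 (background 0% of all genes), and the adjusted p was 0.999 for each. At an unadjusted p under 0.05 there was 1 member, Brd2, which lay below 0, and there was no member above 0. The background is 1.64% of all genes below 0 and 0.975% above 0. The mean Z-ratio of the members had a median of -0.0855, against -0.0449 over all genes. It lay above 0 for 25 of 69 members (36.2%), against 43.1% of all genes, and within 0.5 of 0 for 63. In the Cy5 over Cy3 reading, 20 of 69 members and 2236 of 6463 genes lay above 0. A member's mean had an unadjusted 95% interval that reached a median of 0.584 to either side. Shifts smaller than about this size were not detectable with 6 arrays, and adjustment over all genes raises the size needed. Tbp, with a mean of 1.35, had a limma adjusted p of 0.999. A p that misses the threshold does not show that a gene is the same in both cells. The median SD of a member between arrays was 0.602 and that of all genes 0.644.

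**Figure D1:**
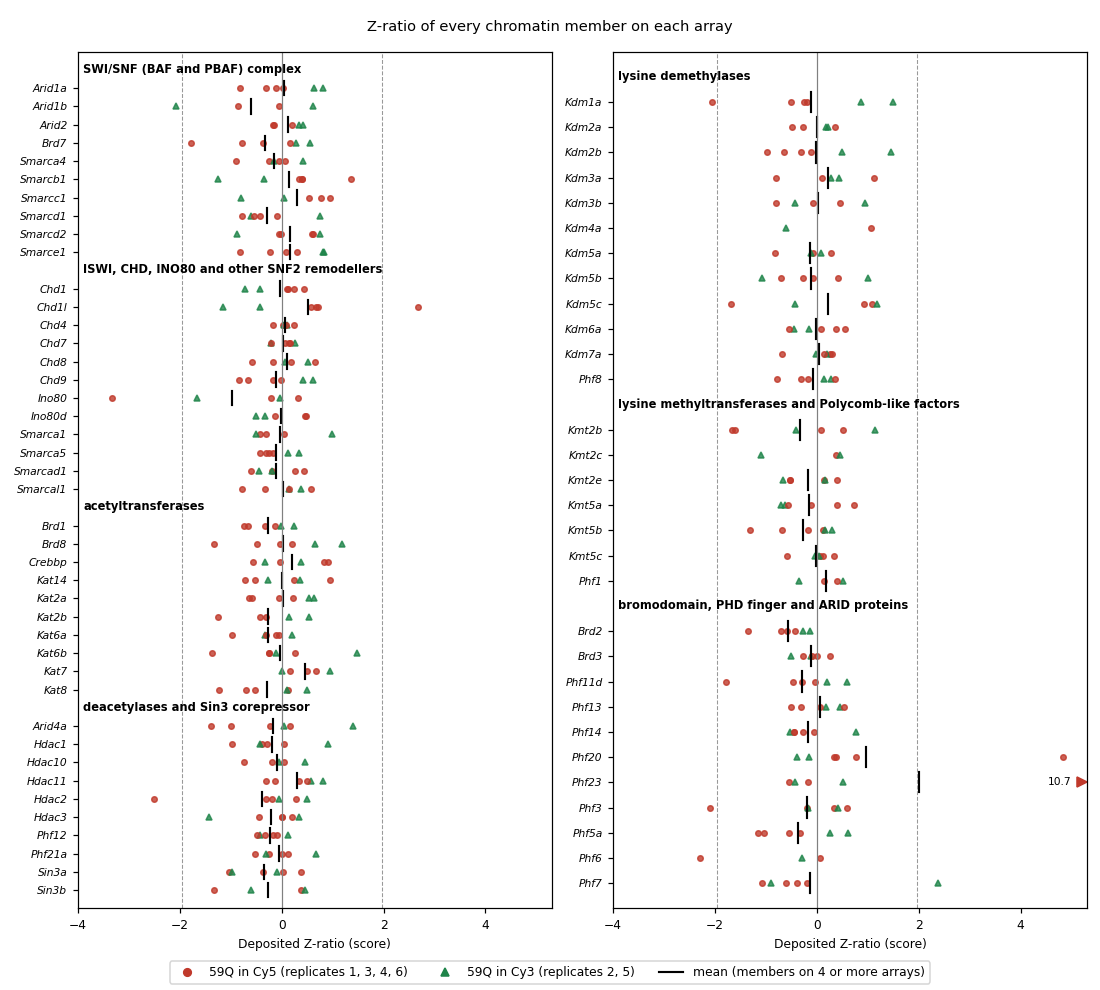
Deposited Z-ratio (horizontal axis, a score) of all 72 members, grouped by role, on each of the 6 arrays. Circles are arrays with 59Q in Cy5, triangles arrays with 59Q in Cy3, black bars are means of members on 4 or more arrays, dashed lines mark the threshold of 1.96 on either side of 0, and an arrow marks the 1 value beyond the axis (Phf23, 10.7). Most means lie within 0.5 of 0, and the values farthest out are single arrays.

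Brd2 was the member with the smallest p. BRD2 is a BET protein, whose paired bromodomains bind acetylated histones and bring transcription regulators to promoters. The 1 clone that carries it read -0.580, -0.127, -0.428, -1.35, -0.272 and -0.696 across replicates 1 to 6. All 6 arrays lay below 0, with replicate 4 lowest, and both arrays with 59Q in Cy3 lay above all 4 with 59Q in Cy5. Its mean was -0.576 ± 0.432 (SD, n = 6), with a limma p of 0.0320 before and 0.999 after adjustment. An exact 2-sided sign-flip permutation test over its 6 arrays gave p = 0.0312, the smallest that 6 arrays allow. Brd2 was the only one of the 52 members on all 6 arrays to keep 1 sign throughout (1.92%, against 1.58% of all 4926 such genes). Read as Cy5 over Cy3 its mean was -0.443 and its limma p 0.0922. Without replicate 4 its mean was -0.421, with a limma p of 0.135. The spots of its clone on replicate 4 stood at -1.39 and -1.31, so both hold the lowest value. On replicate 2 they stood at 0.350 and -0.604, so the sign of that array rests on their average. Its family member Brd3 had a mean of -0.122 ± 0.256 (SD, n = 6) over 3 clones. The start of Brd2 printed above holds 1 GGGCGG, and its other windows of the same length hold none.

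**Figure D2:**
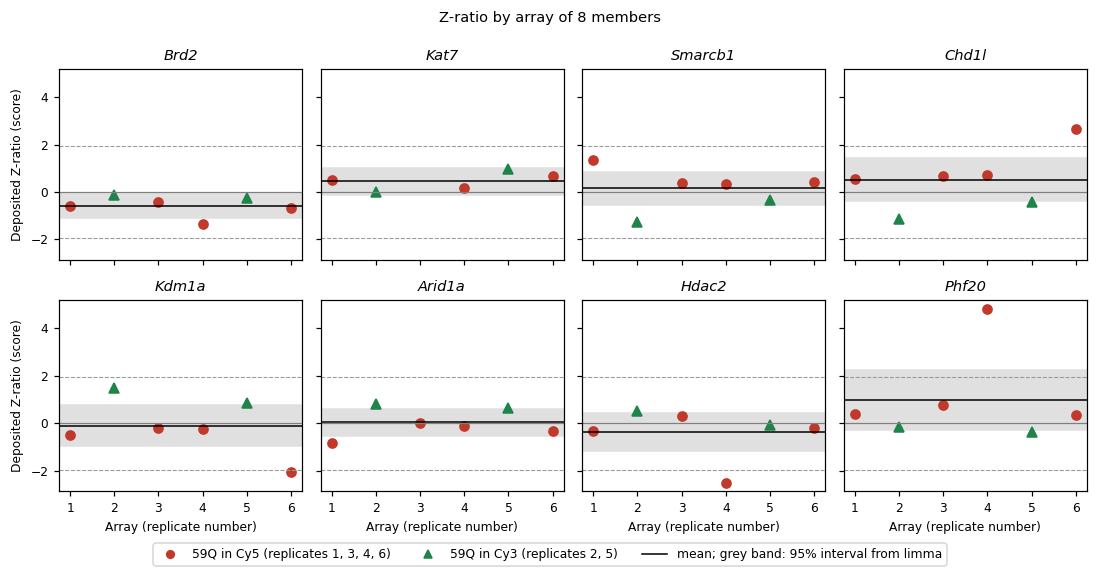
Deposited Z-ratio (vertical axis, a score) of 8 members by array (horizontal axis). Circles are arrays with 59Q in Cy5 and triangles arrays with 59Q in Cy3, the black line is the mean, the grey band its 95% interval from limma, and dashed lines mark 1.96 on either side of 0. Brd2 lies below 0 on all 6 arrays, Smarcb1 and Chd1l have all circles above 0 and both triangles below, and Kdm1a has the opposite.

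Subunits of the SWI/SNF complexes, BAF and PBAF, were spread to both sides of 0. These complexes use the ATPase SMARCA4 or SMARCA2 with a set of shared core subunits to open promoters and enhancers. Of 10 subunits, 6 had a mean above 0 and 4 below, with a median of 0.0798, and 0 passed in limma. With replicates 2 and 5 turned, 4 lay above 0 and the median was -0.205. Smarca4, the ATPase, had a mean of -0.144 ± 0.436 (SD, n = 6), from -0.895 on replicate 1 to 0.423 on replicate 2. Arid1a, the large DNA-binding subunit of BAF, had -0.815, 0.803, 0.0171, -0.107, 0.636 and -0.313 on replicates 1 to 6. Both arrays with 59Q in Cy3 lay above all 4 with 59Q in Cy5, and the mean over all 6 was 0.0370. Arid1b, its paralog, lay at -2.08 on replicate 2 and between -0.865 and 0.606 on the other arrays that measured it, with a mean of -0.597 ± 1.16 (SD, n = 4). Smarcd1 averaged -0.282 ± 0.561 and Brd7, a PBAF bromodomain subunit, -0.324 ± 0.859 (SD, n = 6 each).

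Smarcb1 and Smarcc1 were higher with 59Q in Cy5 than with 59Q in Cy3, the opposite of Arid1a. SMARCB1 and SMARCC1 are core subunits of the canonical BAF complexes. Smarcb1 had 1.36, -1.25, 0.392, 0.341, -0.340 and 0.402 on replicates 1 to 6. Its 4 Cy5 arrays lay above 0 and its 2 Cy3 arrays below, so the orientations did not overlap. Smarcc1 had 0.774, -0.806, 0.534, 0.0351 and 0.956 on replicates 1, 2, 4, 5 and 6, so its replicate 5 lay just above 0. Over all arrays their means were 0.151 and 0.299. The printed starts of both hold 1 GGGCGG, as does that of Brd2. The printed start of Arid1a, chosen for the most matches, holds 5, in part overlapping, and its other window holds 0. Whether these matches bear on the values was not tested.

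The other ATP-dependent remodellers had a median close to 0, with Ino80 lowest and Chd1l highest. This class holds the ISWI ATPases, which space nucleosomes, the CHD proteins, INO80, which slides and evicts nucleosomes, and SNF2 relatives that act in DNA repair and replication. Of 12 genes 5 lay above 0 and 7 below, with a median of -0.0225 and a median SD between arrays of 0.456. In the other reading 6 lay above 0, with a median of -0.0357. Chd4, the ATPase of the NuRD complex, had the narrowest spread of these, from -0.173 to 0.250 over 6 arrays, and a mean of 0.0559. Of its 3 clones, 1 had -1.01, 1.56, -0.685, -0.0535, 0.780 and -0.452 on replicates 1 to 6. Another had 1.33, -1.29, 0.725, 0.359, -1.04 and 0.569, the opposite sign on each of the 6 arrays, and the values cancel in the mean. Chd1l, a remodeller recruited to DNA damage by poly(ADP-ribose), had 0.567, -1.14, 0.676, 0.710, -0.421 and 2.68 on replicates 1 to 6. It lay above 0 wherever 59Q was in Cy5 and below 0 on both other arrays, and its mean was 0.511 ± 1.29 (SD, n = 6). Ino80 had 0.322, -1.66, -3.33, -0.0335 and -0.213 on replicates 1, 2, 4, 5 and 6. Its mean was -0.983 ± 1.51 (SD, n = 5), with a limma p of 0.0726 before adjustment. Its replicate 4 value came from a single spot, and without that array the mean was -0.397. Smarca5, the widely expressed ISWI ATPase, averaged -0.115 ± 0.287 (SD, n = 6), and its paralog Smarca1 averaged -0.0386.

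Acetyltransferases add the acetyl groups that bromodomains read. Of 10 genes, partner subunits included, 5 lay above 0 and 5 below, with a median of -0.0166, and 0 passed in limma. The other reading put 2 above 0, with a median of -0.360. Crebbp, which encodes CBP, had -0.0398, -0.326, -0.567, 0.836, 0.379 and 0.918 on replicates 1 to 6. The arrays lay evenly to both sides of 0, and the mean was 0.200 ± 0.612 (SD, n = 6). Its 4 clones ranged in mean from -0.191 to 1.11. The clone at 1.11 had a single measured spot on replicates 4 and 6, at 2.89 and 1.79. On replicate 6 another clone of Crebbp also had a single spot, at 2.06. Kat7, which acetylates histones at replication origins and genes, was the member with the smallest p above 0 in this class: it had 0.501, 0.00541, 0.168, 0.954 and 0.673 on replicates 1, 2, 4, 5 and 6. All 5 arrays lay at or above 0 and the dye orientations overlapped. Its mean was 0.460 ± 0.382 (SD, n = 5), with a limma p of 0.103 before adjustment. Read as Cy5 over Cy3 this mean was 0.0766. Brd1 and Kat6a, which can sit in shared acetyltransferase complexes, had means of -0.276 ± 0.380 and -0.265 ± 0.399 (SD, n = 6 each), below 0 on 5 of 6 arrays. In the Cy5 over Cy3 reading they had -0.350 and -0.221. Brd8, a subunit of the TIP60 complex, ran from -1.33 to 1.19 with a mean of 0.0282.

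Deacetylases and the Sin3 corepressor remove those acetyl groups. Of 10 genes 1 lay above 0 and 9 below, with a median of -0.204, the lowest of the 7 classes as deposited, and 0 passed in limma (0 at an unadjusted p under 0.05). Hdac11, the class's only member above 0, averaged 0.298 ± 0.431 (SD, n = 6) and -0.165 read as Cy5 over Cy3. Hdac1 had -0.975, 0.914, 0.0527, -0.385, -0.436 and -0.292 on replicates 1 to 6 and a mean of -0.187. Hdac2, its close paralog and partner, had -0.316, 0.495, 0.285, -2.51, -0.0632 and -0.186. Replicate 4 stood apart. It rests on a clone with 1 measured spot at -4.72, while the other Hdac2 clone lay at -0.293 there, and without replicate 4 the mean moved from -0.382 to 0.0431. Sin3a, the scaffold that holds both enzymes, averaged -0.347 ± 0.568 (SD, n = 6), and its 3 clones had means from -0.615 to -0.232. Phf12, a subunit of a Sin3 complex, averaged -0.230 ± 0.230, below 0 on 5 of 6 arrays, and Arid4a, another Sin3 partner, ran from -1.39 to 1.39. Turned to Cy5 over Cy3, Sin3a averaged 0.0120, and the class had 2 members above 0 and 8 below, with a median of -0.186 that was no longer the lowest of the classes.

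Lysine demethylases had a median of -0.0220, with 4 of 11 above 0 and 7 below. The Cy5 over Cy3 reading gave a median of -0.118, with 1 above 0. Kdm1a encodes LSD1, which removes methyl groups as part of the CoREST repressor complex. It had -0.516, 1.49, -0.192, -0.262, 0.863 and -2.06 on replicates 1 to 6. All 4 Cy5 arrays of 59Q lay below 0 and both Cy3 arrays above, and replicate 6 was lowest, with its spots at -2.15 and -1.97. Its mean was -0.113 as deposited and -0.896 ± 0.740 (SD, n = 6) read as Cy5 over Cy3. Kdm3a, Kdm5a and Kdm5c, which had the smallest p of the class as deposited, averaged 0.225, -0.132 and 0.216, each with a limma p of 0.476 or more before adjustment. Kdm4a lay at 1.07 and -0.603 on the only arrays that measured it, replicates 1 and 2.

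Lysine methyltransferases and the Polycomb-like factor Phf1 were the smallest class, with 1 of 6 above 0 and 5 below, and a median of -0.162. Turned to Cy5 over Cy3, 2 lay above 0 and the median was -0.00601. Kmt2b, which methylates histones at promoters, averaged -0.328 ± 1.14 (SD, n = 6), from -1.68 on replicate 3 to 1.15 on replicate 5. Kmt5b averaged -0.267 ± 0.621, Kmt2e -0.173 ± 0.451 and Kmt5a -0.151 ± 0.595 (SD, n = 6 each). Kmt2c, measured on 3 arrays, lay at 0.368, -1.10 and 0.461 on replicates 1, 2 and 5.

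The remaining bromodomain and PHD finger proteins held the widest values, on replicate 4. PHD fingers read methylated or unmodified histone tails. Of 10 genes 3 lay above 0 and 7 below, with a median of -0.149, and in the Cy5 over Cy3 reading 3 lay above 0, with a median of -0.254. Phf23 was the only member whose mean lay past the Z-ratio threshold of 1.96 used in the study's methods (1.45% of members, against 0.263% of all genes). It had -0.552, -0.424, 10.7, 0.512 and -0.172 on replicates 1, 2, 4, 5 and 6. The value of 10.7 came from 1 spot of replicate 4, and the 95% interval of the mean of 2.00 ran from -1.12 to 5.13. Without replicate 4 the mean was -0.159. Phf20, a reader in the NSL acetyltransferase complex, had 0.379, -0.157, 0.762, 4.83, -0.383 and 0.339 on replicates 1 to 6, with a mean of 0.961 ± 1.94 (SD, n = 6). Its replicate 4 value combined 1 spot at 8.87 from one clone with 0.786 from another, and without that array the mean was 0.188. Phf5a, a PHD protein of the SF3b splicing complex, averaged -0.368 ± 0.702 (SD, n = 6). Phf6, not tested, lay at 0.0527, -0.284 and -2.30 on replicates 1, 2 and 4.

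**Figure D3:**
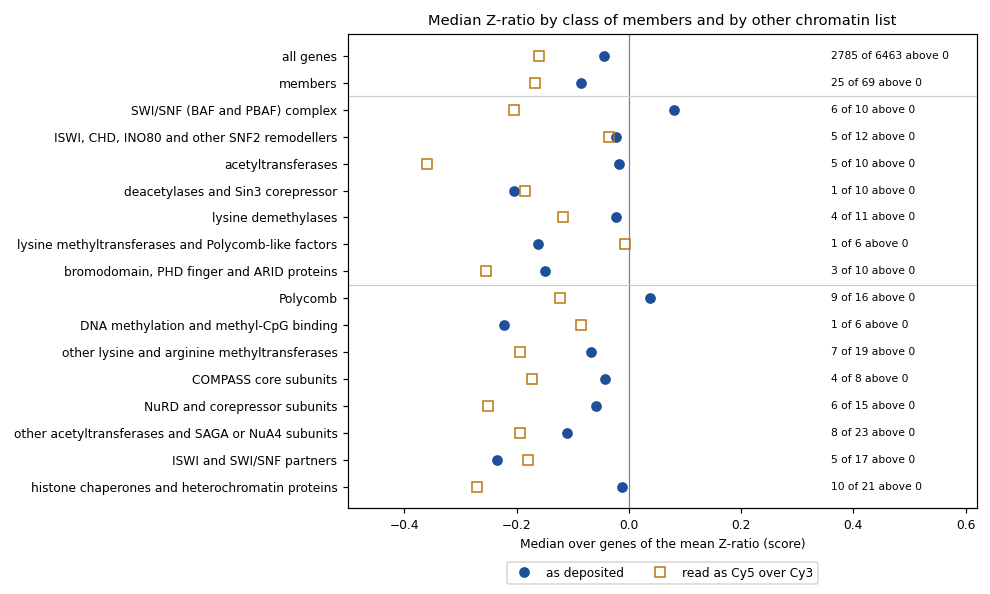
Median over genes of the mean Z-ratio (horizontal axis, a score) for all genes, all members, the 7 classes of members and 8 other lists of chromatin genes. Filled circles are values as deposited and open squares values read as Cy5 over Cy3, and the text at the right gives the genes above 0 as deposited. Reading the arrays as Cy5 over Cy3 moves the acetyltransferases and the SWI/SNF subunits down most.

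Past the threshold of 1.96 on single arrays lay 10 of 402 values of members (2.49%), against 2.77% of 37647 values of all genes. Replicate 4 held 5 of the 10, replicates 2 and 6 held 2 each, and replicate 3 held 1. In 4 of the 10 the gene's value was a single spot, and in 2 more, Hdac2 and Phf20 on replicate 4, it rested on a clone with 1 spot beside another clone. Counted by clone, values from 1 spot lay past the threshold in 10 of 56 cases for the members (17.9%), and values from both spots in 9 of 569 (1.58%). Over all clones these shares were 14.3% of 4904 and 3.45% of 79053. On replicate 4 alone the members had 7 of 23 single-spot values past it and 0 of 80 values from both spots. With single spots limited to 5 on either side of 0, the mean of Phf23 was 0.873 in place of 2.00 and that of Phf20 was 0.639 in place of 0.961. The single spots of Hdac2 and Ino80 lie within that limit, so their means were not changed by it.

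Clones of the same gene were a second measure of error. Among the 29 members with several clones on at least 4 arrays, the means of the clones lay on both sides of 0 for 19, and the gap between the lowest and the highest clone had a median of 0.394. It was 2.29 for Phf20, 1.30 for Crebbp and 1.28 for Hdac2, and 0.0301 for Arid2. Members with 1 clone had a median SD between arrays of 0.683 (38 genes), and those with several had one of 0.454 (31 genes). Whether clones of paralogs bind each other's transcripts was not tested.

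**Figure D4:**
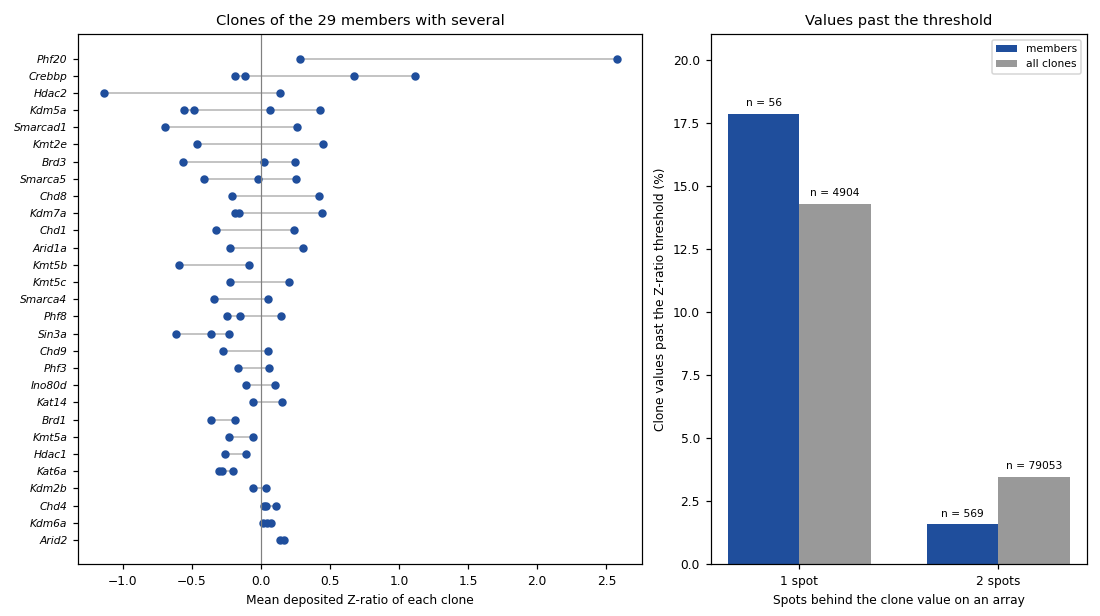
Left, mean deposited Z-ratio (horizontal axis, a score) of each clone of the 29 members with several clones on at least 4 arrays, with a line from the lowest to the highest clone. Right, percent of clone values 1.96 or more from 0 by the number of spots behind the value, for members (blue) and all clones (grey), with the number of values above each bar: 17.9% against 1.58% for the members.

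With the arrays read as Cy5 over Cy3, 14 members had an unadjusted p under 0.05, in shares near those of all genes, and none passed. The test called 18 genes (0.279% of those tested), 17 higher and 1 lower, and 0 of 69 members, whose smallest limma adjusted p was 0.145. At an unadjusted p under 0.05 there were 3 members above 0 (4.35%, background 6.42%) and 11 below (15.9%, background 13.4%). Those above were Chd1l at 1.03 ± 0.841 (SD, n = 6), Smarcb1 at 0.681 ± 0.485 (SD, n = 6) and Smarcc1 at 0.607 ± 0.389 (SD, n = 5). Those below were Kdm1a at -0.896, Kdm2b at -0.667, Phf5a at -0.659, Arid4a at -0.649, Brd7 at -0.601, Brd8 at -0.584, Phf11d at -0.566, Kat2b at -0.533, Kat8 at -0.493, Chd9 at -0.453 and Arid1a at -0.443. Leaving out each replicate in turn, Chd1l, Smarcb1, Kdm1a, Kdm2b and Phf5a stayed under an unadjusted p of 0.05 in all 6 fits, and the other 9 lost it in at least 1. The median of all members was -0.167 in this reading, against -0.160 for all genes.

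The difference between the dye orientations of the deposited values was tested as a dye term in limma. Read as Cy5 over Cy3, the same term would stand for a difference between 59Q and N3. No member passed (0% of all genes did), with a smallest adjusted p of 0.246, for Kdm1a and Kdm2b. At an unadjusted p under 0.05, Chd1l, Smarcb1 and Smarcc1 were higher with 59Q in Cy5 (4.35%, background 5.91%), by dye coefficients (in units of the score) of 0.970, 0.709 and 0.570. Kdm1a, Kdm2b, Brd8, Phf5a and Arid1a were lower (7.25%, background 10.2%), with coefficients of -0.966, -0.742, -0.668, -0.603 and -0.512. On all 6 arrays, 4 of 52 members were positive on the 4 Cy5 arrays and negative on both Cy3 arrays (7.69%, background 5.01%), which were Chd1, Chd1l, Phf20 and Smarcb1. The reverse held for 6 (11.5%, background 11.2%), which were Chd9, Kdm1a, Kdm2b, Phf11d, Phf5a and Smarca5. Of 69 members 50 had a lower mean with 59Q in Cy5 than with 59Q in Cy3 (72.5%), against 65.0% of all genes, among them 10 of 11 demethylases and 9 of 10 acetyltransferases but 3 of 6 methyltransferases. The members' median was -0.208 with 59Q in Cy5 and 0.138 with 59Q in Cy3, and that of all genes was -0.161 and 0.159. Whether such opposite signs come from the dyes, or from 59Q with ratios taken as Cy5 over Cy3, cannot be told apart in these arrays.

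**Figure D5:**
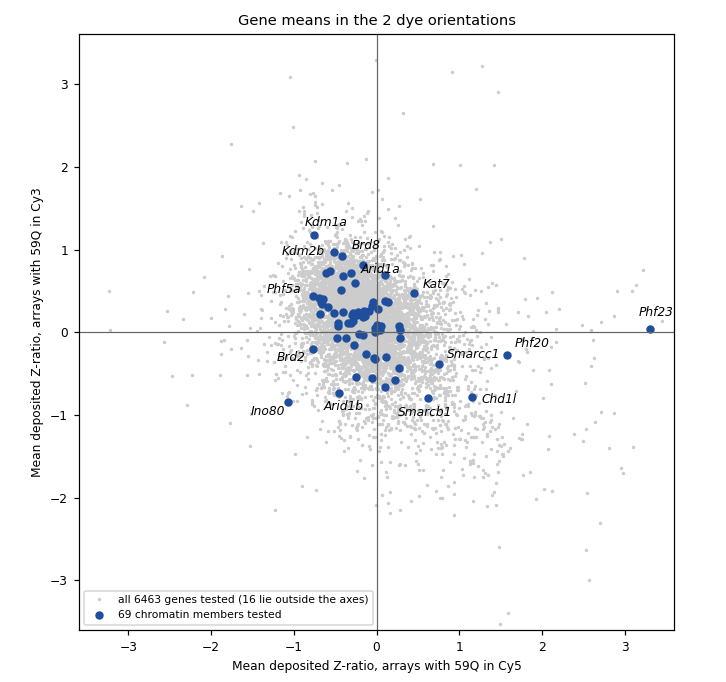
Mean deposited Z-ratio (a score) on arrays with 59Q in Cy5 (horizontal axis) against that on arrays with 59Q in Cy3 (vertical axis) for the 69 members tested (blue) and all 6463 genes tested (grey). A gene with the same shift in both orientations would lie on the rising diagonal, and a gene whose sign turns with the dye layout on the falling one: Kdm1a (-0.757, 1.17) and Chd1l (1.16, -0.783) lie near the falling diagonal, and Brd2 (-0.764, -0.200) lies below 0 on both axes.

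Other chromatin genes were taken from 8 lists of complexes that the symbol rule does not cover. Of 125 such genes tested, 50 had a mean above 0 and 75 below, with a median of -0.0800, and 0 passed in limma. At an unadjusted limma p under 0.05 there was 1 of the 125, against 169 of all 6463 genes. The other reading left 37 above 0, with a median of -0.197, and 0 passed in limma. There 22 of the 125 had an unadjusted limma p under 0.05, against 1282 of all 6463 genes. Polycomb, which keeps developmental genes silent, had 9 of 16 genes above 0 and a median of 0.0380 (6 and -0.123 read as Cy5 over Cy3). Genes of DNA methylation and methyl-CpG binding had 1 of 6 above 0 and a median of -0.222 (3 and -0.0848 in the other reading). The partners of ISWI and SWI/SNF had 5 of 17 above 0 and a median of -0.235 (7 and -0.179 in the other reading). Among them Baz1a, the partner of the ISWI ATPase SMARCA5 in the ACF complex, had the smallest p of the 125, with a mean of -1.14 ± 1.55 (SD, n = 6) and a limma p of 0.0354 before and 0.999 after adjustment. In the other reading it had -0.943. Subunits of NuRD and of corepressors had a median of -0.0583 (6 of 15 above 0), other acetyltransferases and subunits of SAGA or NuA4 one of -0.110 (8 of 23), other methyltransferases one of -0.0665 (7 of 19), core subunits of COMPASS one of -0.0426 (4 of 8), and histone chaperones and heterochromatin proteins one of -0.0115 (10 of 21). In the other reading the medians of these 5 lists were -0.251 (5 above 0), -0.194 (7), -0.193 (3), -0.172 (1) and -0.270 (5), in the same order.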

How the data were processed

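Total RNA of 59Q and N3 transfected cells was labelled by the authors with a tyramide signal amplification kit and hybridized in pairs to 6 mouse cDNA arrays of 31200 spots. They scanned the slides and read them with GenePix Pro (version not given in the sources used here). What was used here are the deposited Z-ratios of the authors, a score whose SD is 1 on every array. Intensities were not used, so the signal over background is unknown and the number of arrays limits the precision. Spots without a value numbered from 19 (replicate 1) to 11234 (replicate 3). Probes were named through the platform annotation supplied: 1 symbol was given for 18384 spots, several for 514 and none for 12302. Spots with several symbols were not used, which leaves out 8 clones under 6 names that include a member symbol.

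The neighbouring spots of a clone were averaged, then the clones of a gene. Duplicate spots correlated at 0.730 to 0.889 within arrays. The 6463 genes with 4 or more arrays entered an intercept fit in limma 3.58.1 (R 4.3.3, lmFit and eBayes), and Benjamini-Hochberg adjustment ran over all of them with a threshold of 0.05. A second fit added a dye term, and exact sign-flip permutation tests were run with Python 3.11.15. The scripts were tested on simulated data. Genes named are, in each of 7 role classes, up to 3 members with the smallest p and 1 with the smallest p of the dye term, further members fixed whatever their values (Crebbp, Smarca4, Arid1a, Hdac1, Hdac2, Sin3a and Ino80), members past the Z-ratio threshold, Tbp, and at most 1 gene of each other list. Other members named in lists of counts, and Chd4, Brd3 and the members not tested, were chosen after their values were seen. The members, classes and lists were chosen with earlier results of these data known. Alternatives changed the direction, the arrays or replicates used, the flip-dye pairs, the dye term, the centring, scaling or quantiles of the arrays, the limit on missing values, the variance model, the clipping of spots, the way clones were combined and the symbols. The members' proteins, and the promoters of 19 members, were not analysed here.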

Additional observations from a re-analysis of the deposited data

Results flagged for a closer look

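The values of the named members on the 4 arrays with 59Q in Cy5 were searched for an array that stands apart from the other 3, by the gap to its nearest neighbour as a share of the whole range. Of 25 members with all 4 values, 3 had such an array. For normally distributed values the limit used is passed in about 1 in 20 sets. Many of these members were named for a small p on the same arrays, and the share over all genes was not computed. The count of 3 can therefore not be compared with chance. Smarcb1 on replicate 1 stood at 1.36, above 0.341 to 0.402 on the other 3 arrays (share 0.940). Chd1l on replicate 6 stood at 2.68, above 0.567 to 0.710 (share 0.932), and both spots of its clone were high there, at 2.51 and 2.84. Phf20 on replicate 4 stood at 4.83, above 0.339 to 0.762 (share 0.906), and that value rests on a clone with 1 measured spot. The mean of Phf20 was 0.961 over 6 arrays, 0.639 with spots limited to 5 on either side of 0 and 0.188 without replicate 4.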

How the results depend on the processing

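The count of members passing was 0 in the 33 alternatives run for it, of which 1 was a sign-flip permutation test and the others limma fits, and the count of members with a dye coefficient passing was 0 in the 15 run for it. Over all genes the count was 0 in the alternatives run, except when read as Cy5 over Cy3, where it was 18. The 0 of the sign-flip test carries no weight. Its smallest p with 6 arrays is 0.0312, and 1.58% of the 4926 genes adjusted together kept 1 sign, too few for any to pass. The members' median Z-ratio of -0.0855 was moved by more than the SD of the array medians, 0.175, in 1 alternative. This was the use of only the arrays with 59Q in Cy3, where the median was 0.127. The count of members above 0, 25 in the main fit, was highest there, at 46. The count was lowest, at 17, with only genes on all 6 arrays, but there only 52 members were tested. As a share of those tested it was lower elsewhere, such as 19 of 66 with only the arrays with 59Q in Cy5. With a dye term in the fit 33 members lay above 0. Leaving out each replicate in turn gave medians from -0.134 to -0.0272, from 22 to 30 members above 0, and 0 calls over the members, over all genes and for the dye coefficient. Brd2 lay below 0 in 31 of 31 fits, with means from -0.825 to -0.200. Since all 6 of its arrays lay below 0, fits that drop or average arrays could give no other sign. Brd2 lost an unadjusted limma p under 0.05 in 6 of the 31. Its smallest limma adjusted p was 0.309, with only the arrays with 59Q in Cy5. The Cy5 over Cy3 reading without each replicate, chosen after seeing the data, gave 0 calls among members and 0 over all genes, except 30 over all genes without replicate 5. No paired analysis by replicate number was possible because the dye groups share no number, and the labels do not say which arrays form the flip-dye pairs. Each of the 12 possible pairings was fitted instead, with 0 members passing in each.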
